A study of Mus musculus with 5 samples.

Results

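Pi16 Stmn4 cells are a set of mesenchymal cells of uninjured mouse hindlimb muscle. They were chosen from the single-cell RNA sequencing library of uninjured muscle (d0) as cells in which at least 3 of 8 genes (Pi16, Stmn4, Smpd3, Anxa3, Aif1l, Ptx3, Mrgprg and Car8) had at least 1 unique molecular identifier (UMI), the tag that marks each captured RNA molecule. Cells entered with 350 to 8000 detected genes, under 20% of UMIs on mitochondrial genes and at least 1000 UMIs. The rule found 967 cells among 4632 d0 cells (20.9%, exact binomial 95% interval 19.7 to 22.1%) and 29831 cells of the same filter in the whole series. The other 3665 d0 cells are the comparison throughout.

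The study asked how mesenchymal cells of skeletal muscle take part in bone repair. All 5 libraries came from Prx1Cre;mTmG mice on a C57Bl/6 background, with no other allele named in the labels, and each library was made from GFP+ cells sorted from hindlimb muscles of 2 mice. The groups are uninjured muscle (d0), d3 and d5 after tibial fracture, and d3 and d5 after polytrauma, in which the fracture is combined with a mechanical injury of the adjacent muscles. Prx1Cre acts in the limb bud mesenchyme, so GFP marks descendants of that lineage whatever their present type. Muscles were taken around the tibia per the methods, while tendon, fat, fascia, periosteum and bone marrow were avoided, and RNA was captured at its 3′ end.

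The d0 library held 18247307 UMIs over 5653 barcodes. With 1 library per condition there is no replicate, and p-values cannot be had. Intervals in the text are exact 95% intervals that cover counting error only. Levels are summed UMIs as CPM, the share of all UMIs of the same cells in parts per 1000000. They count 3′ ends and are not scaled by gene length. Pi16 Stmn4 cells had a median of 4155 UMIs and 1498 genes, against 3541 UMIs and 1347 genes in the other d0 cells, and a median of 2.59% against 3.31% mitochondrial UMIs. The rule favours deeper cells, since a gene is more easily detected in them, and when every cell was thinned to 1000 UMIs only 479 cells (10.3%, 9.48 to 11.3%) met it.

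The identity of some libraries bears on what follows. The barcodes of 92 d0 cells also occurred in another library, and 19 of them were Pi16 Stmn4 cells. The number of cells that the source data of the study list for d5 post-fracture fits the library labelled d3 post-polytrauma, so the conditions of these libraries are doubtful and each is called by its label. The paper reports that the fall of mesenchymal markers was delayed in polytrauma at d3. Levels of Cd34 and Pdgfra are given by label further on. Xist, the RNA of the inactive X chromosome, was detected in 91.0% of d0 cells and 4 genes of the Y chromosome (Ddx3y, Eif2s3y, Uty and Kdm5d) in 1 d0 cell. The library labelled d5 post-polytrauma had Xist in 1.27% and Y genes in 75.8% of cells, so that library differed in sex from d0. The d0 cells cannot be divided by mouse, since Y genes were all but absent from the library.

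Connective tissue of muscle holds several states of fibroblast-like cells, often called fibro-adipogenic progenitors or mesenchymal progenitors (FAP/MP). Fibroblasts that wrap vessels, nerves and muscle bundles are known in many tissues for Pi16, a secreted protein with a peptidase inhibitor name, and for Dpp4, a surface peptidase, and they lie in loose tissue rich in elastic fibres and hyaluronan. Fibroblasts spread between the muscle fibres are known for other genes, among them Col15a1, Smoc2, Cxcl14 and Hsd11b1. The former are called adventitial and the latter parenchymal here. The names come from other tissues and studies, and both lists were chosen with earlier results of these data known.

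The markers bear out a mesenchymal identity, and nothing in the files bears on the word progenitor. At least 2 of 5 FAP/MP markers were detected in 934 Pi16 Stmn4 cells (96.6%), against 68.5% of the other d0 cells. Ly6a, which encodes Sca1, was 1999 CPM against 673 CPM (2.97-fold, 2.88 to 3.06), and Cd34, a surface sialomucin, was 1365 against 485 CPM (2.81-fold, 2.71 to 2.92). Pdgfra, the receptor that is most often used to sort these cells, had a ratio of 0.779, and the other 2 markers, the limb transcription factor Prrx1 and the chemokine Cxcl12, had ratios of 1.61 and 0.758. The FAP/MP list thus had 2 of 5 genes at least 2-fold higher and none at least 2-fold lower. The other d0 cells were also limited to those with at least 2 FAP/MP markers and fewer than 2 tenocyte or mural ones. Against these, no gene of the list was 2-fold higher and Pdgfra was 2-fold lower (0.469). Stmn4, which gives these cells part of their name, was detected in only 51.2% of them.

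Markers of other cell types were low. The endothelial list, though low, was above the other d0 cells, at 16.9 against 10.3 CPM summed. Its most abundant gene, Kdr, had 10.7 against 3.13 CPM (3.40-fold, 2.17 to 5.34), with too few UMIs for a call. At least 2 of 6 tenocyte markers were found in 36 Pi16 Stmn4 cells (3.72%) and 15.7% of the others, and at least 2 of 8 mural markers in 106 cells (11.0%) and 30.7% of the others. Summed over the list, tenocyte markers stood at 408 against 2994 CPM and mural markers at 519 against 4622 CPM, with Fmod, a small proteoglycan of tendon, and Acta2, smooth muscle actin, as the most abundant of each list in the Pi16 Stmn4 cells (158 and 302 CPM). Of the sparse lists, 1 Pi16 Stmn4 cell had at least 2 hematopoietic markers, 2 had endothelial, 4 perineurial, 4 chondrocyte, 1 osteoblast and 1 cell-division markers. No cell had 2 myogenic, glial or adipocyte markers, which allows a share of up to 0.310% for each at 3 counts (exact upper bound 0.381%). This limits cells in which such markers were detected, not cells that express them.

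Several defining markers were at 0 UMIs in the Pi16 Stmn4 cells. These were Pax7, Myod1, Myf5 and Chrna1 of the myogenic list, Adipoq, Plin1, Cidec and Lep of the adipocyte list, Sox10 of the glial list, Sp7, Ibsp and Dmp1 of the osteoblast list, Acan and Fgfr3 of the chondrocyte list, Emcn of the endothelial list and Itgam of the hematopoietic list. The GFP reporter is part of the count matrix, and it had 2236 CPM and was detected in 97.0% of Pi16 Stmn4 cells, against 2491 CPM and 97.4% of the other d0 cells (EGFP was looked up after other values had been seen). The membrane tomato of the unrecombined allele had 0 UMIs in both sets, below 0.744 CPM in the Pi16 Stmn4 cells at 3 counts.

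The 8 genes of the rule are given as a description, since they chose the cells. Pi16 was detected in 97.6% of Pi16 Stmn4 cells and 39.6% of the others, at 3772 against 369 CPM. Anxa3, a membrane-binding annexin, was in 93.1% against 23.1% of cells (1061 against 118 CPM), and Ptx3, a secreted pentraxin that binds hyaluronan-linked matrix, in 60.2% against 7.80% (913 against 63.9 CPM). A UMI in a droplet can also come from free RNA. In 678 d0 cells with at least 2 mural markers and under 2 FAP/MP markers (median 4230 UMIs), Pi16 was detected in 17.6%, Anxa3 in 19.5% and Ptx3 in 2.95%, and in 1901 cells outside the set with FAP/MP markers and few tenocyte or mural ones (median 3279 UMIs) in 50.2%, 25.8% and 10.1%. How much of the shares outside the set is free RNA was not tested. The other 5 were each detected in at most 2.73% of the other d0 cells.

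Stmn4, a microtubule-binding stathmin best known in neurons, had 346 against 10.7 CPM and was in 51.2% against 2.73% of cells. Aif1l, an actin-bundling protein, had 165 against 6.49 CPM (44.5% against 2.24%), and Car8, a carbonic anhydrase relative without enzyme activity, had 119 against 3.51 CPM (33.6% against 1.26%). None of these was near to general in the set. Smpd3, a neutral sphingomyelinase of membranes, had 119 against 1.64 CPM (25.2% against 0.573% of cells), and Mrgprg, an orphan receptor of a family known from sensory neurons, had 226 against 1.86 CPM (23.4% against 0.655%). Of all d0 UMIs of Mrgprg, 97.3% lay in Pi16 Stmn4 cells, against 75.5% of those of Pi16.

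Leaving a gene out of its own selection lowered its ratio and turned none around. When cells were chosen by at least 3 of the other 7 genes, the ratio of Mrgprg was 86.1, that of Smpd3 37.9, that of Car8 17.6, that of Aif1l 14.2, that of Pi16 7.86, that of Ptx3 7.73, that of Stmn4 6.91 and that of Anxa3 6.66. The ratio of Stmn4 changed the most in proportion, from 32.2. Choosing on a random split of the UMIs and reading levels from the remainder gave 715 cells and ratios between 7.36 (Anxa3) and 48.1 (Mrgprg). The rule genes had been chosen together to mark these cells, so both readings describe the set and give no independent support.

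**Figure D1:**
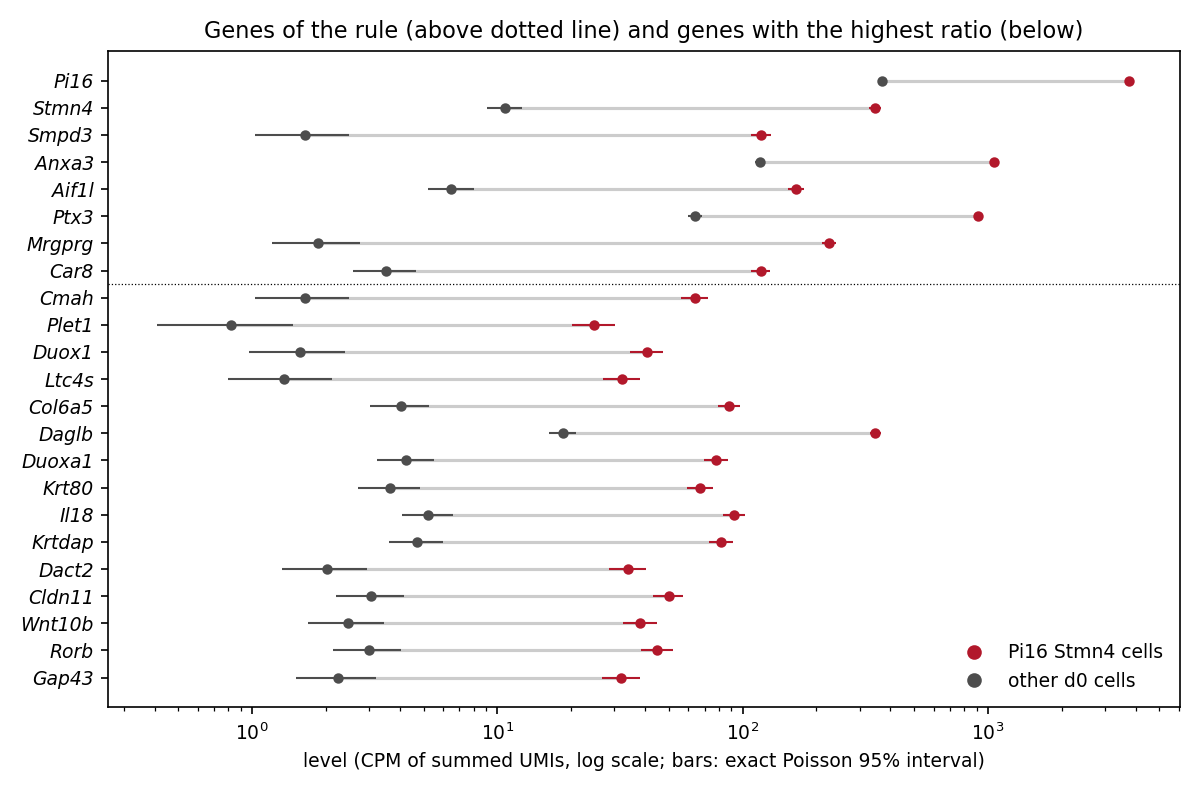
Levels (CPM, log axis) of the 8 genes of the rule and of the 15 other genes with the highest ratio, in 967 Pi16 Stmn4 cells (red) and 3665 other d0 cells (grey), with exact Poisson 95% intervals. Pi16 (3772 CPM) and Anxa3 also have UMIs in many of the other cells, and Ptx3 in 7.80% of them. Genes such as Mrgprg (226 against 1.86 CPM) are low there.

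The 967 cells carried 99 different combinations of the 8 genes. The commonest was Pi16, Stmn4 and Anxa3 alone, in 122 cells (12.6%), followed by Pi16, Anxa3 and Ptx3 in 101 cells (10.4%). At the threshold, 348 cells had exactly 3 of the genes and were inside, and 704 had exactly 2 and were outside. Both groups are described by their levels without a test. Dpp4 was 67.8 CPM in the cells with 3 and 31.9 CPM in those with 2, and Cd55, a complement regulator of the cell surface, was 300 and 109 CPM. Cells just outside the threshold therefore had part of the same expression.

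Levels changed gradually with the number of rule genes in a cell. Dpp4 was 5.86 CPM in the 1512 cells with none, 13.5 CPM with 1 gene, 104 CPM with 4 and 145 CPM with 6, and 69.4 CPM in the 10 cells with all 8. Cd55 went from 25.3 CPM with none to 498 CPM with 4 and 786 CPM with 8. Daglb, a lipase that makes the endocannabinoid 2-arachidonoylglycerol, behaved differently, with 14.8 CPM in cells with none, 59.0 CPM with 3, 434 CPM with 5 and 2035 CPM with 8. In the opposite direction, Cxcl14, a chemokine, had 365 CPM in cells with none, 188 CPM with 2 and 60.4 CPM with 3, and no UMI in the cells with 8. Smoc2, a matricellular protein, had 908, 937 and 555 CPM at 0, 2 and 3 genes and 88.4 CPM at 6. Median depth rose along the first part of this order, from 3363 UMIs in cells with none to 3563, 3788, 4081 and 4426 UMIs with 1, 2, 3 and 4 genes, and was 4081, 3637, 4172 and 4150 UMIs with 5, 6, 7 and 8. Its part in the levels was not tested.

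**Figure D2:**
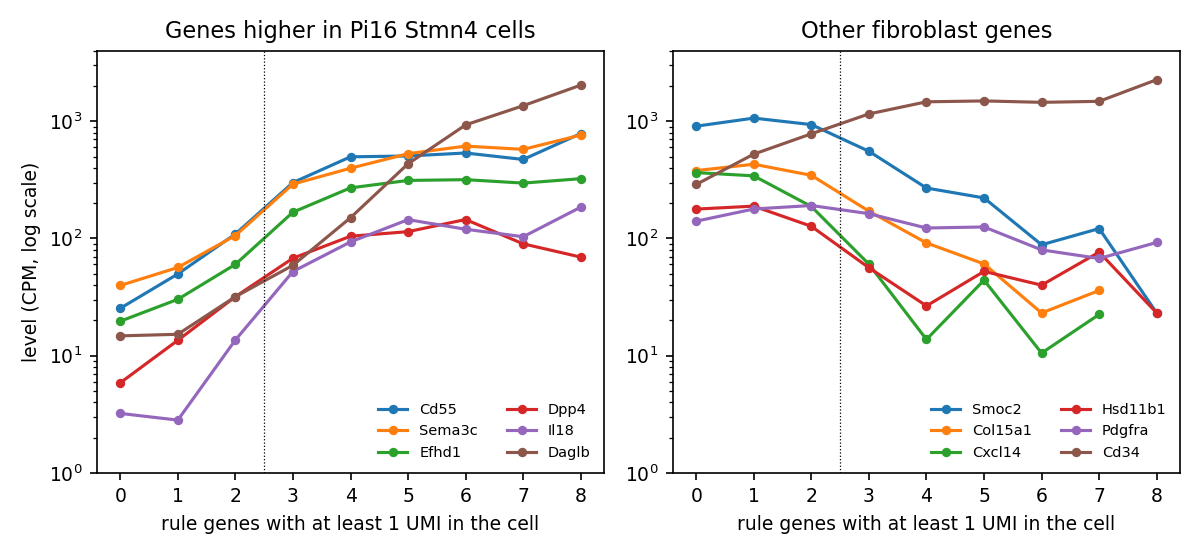
Levels (CPM, log axis) by the number of rule genes detected in a d0 cell, with the threshold of the rule as a dotted line and values of 0 not drawn. Cd55 and Efhd1 change little between 4 and 7 genes, Sema3c goes from 398 to 576 CPM, Daglb goes on to 2035 CPM, and Smoc2, Col15a1, Cxcl14 and Hsd11b1 lie lower inside the threshold than outside it.

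Of 9084 genes with at least 100 UMIs over the d0 cells, 355 (3.91%) were at least 2-fold higher in Pi16 Stmn4 cells and 913 (10.1%) at least 2-fold lower. The cells were chosen by expression, so these numbers describe the set and are the background for each list below. The median gene had a ratio of 0.989. Beside the rule genes, the highest ratio belonged to Cmah, the hydroxylase that makes the sialic acid Neu5Gc, with 63.7 against 1.64 CPM (38.8-fold, 25.1 to 63.1), detected in 19.3% against 0.546% of cells. Plet1, a surface protein of placenta and skin epithelium, followed with 24.8 against 0.821 CPM (30.2-fold), yet was detected in only 32 Pi16 Stmn4 cells (3.31%). Most of the leading genes were thus marks of a fraction of the cells.

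A pair of neighbouring genes stood among the leading ones. Duox1, an oxidase that releases hydrogen peroxide at the cell surface, had 40.7 against 1.57 CPM (26.0-fold, 16.4 to 43.1), and Duoxa1, the maturation factor that carries Duox1 out of the endoplasmic reticulum, had 78.1 against 4.25 CPM (18.4-fold, 13.8 to 24.8). Duoxa1 was detected in 228 Pi16 Stmn4 cells and Duox1 in 133, and 44 cells had both, which is 19.3% of the former and 33.1% of the latter. Over the whole set Duox1 was detected in 13.8% and Duoxa1 in 23.6% of cells, so most cells with either gene had no UMI of the other. In GENCODE M21 (GRCm38) they lie head to head on chromosome 2, Duoxa1 at chr2:122302191-122313730 on the minus strand and Duox1 at chr2:122315672-122347972 on the plus strand, with 1941 bases between them. The sequences around their starts are shown because the genes are divergent neighbours among the leading ones, and that of Pi16 because the gene names the set. They are RefSeq promoters of GRCm38.p6 (250 bases before to 50 after the start), 5′ to 3′ on the strand of the gene, and capitals mark a CCAAT box.
Duoxa1 (chr2:122313681-122313980, minus strand): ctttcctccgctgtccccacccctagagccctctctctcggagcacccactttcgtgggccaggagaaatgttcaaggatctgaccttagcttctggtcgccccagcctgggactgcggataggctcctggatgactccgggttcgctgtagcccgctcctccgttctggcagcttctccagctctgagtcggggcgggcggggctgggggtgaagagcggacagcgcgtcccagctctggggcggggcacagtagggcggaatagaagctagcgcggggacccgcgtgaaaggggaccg
Duox1 (chr2:122315422-122315721, plus strand): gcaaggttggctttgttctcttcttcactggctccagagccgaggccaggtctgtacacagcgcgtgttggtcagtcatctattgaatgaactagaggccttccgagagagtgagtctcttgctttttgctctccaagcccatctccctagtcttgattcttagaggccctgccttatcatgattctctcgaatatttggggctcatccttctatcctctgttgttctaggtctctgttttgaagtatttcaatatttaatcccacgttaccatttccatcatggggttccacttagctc
Pi16 (chr17:29318632-29318931, plus strand): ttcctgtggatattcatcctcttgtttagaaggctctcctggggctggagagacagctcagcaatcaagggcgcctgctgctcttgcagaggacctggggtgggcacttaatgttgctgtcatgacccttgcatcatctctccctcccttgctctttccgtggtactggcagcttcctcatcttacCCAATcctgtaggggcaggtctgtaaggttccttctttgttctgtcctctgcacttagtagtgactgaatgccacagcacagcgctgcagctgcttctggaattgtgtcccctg

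Of the 23 rule and leading genes, 17 had a promoter in the table. The motifs searched on both strands were the TATA box (TATAAA), the AP-1 site (TGANTCA) and the CCAAT box (CCAAT). In the first promoter that the table lists for each gene, they were found in 3, 2 and 6 of the 17 genes (17.6%, 11.8% and 35.3%), against 13.6%, 7.81% and 37.4% of all 32851 promoters. Cmah and Rorb had another promoter each, which held a CCAAT box and an AP-1 site, respectively. None of the 3 was in the windows of Duoxa1 and Duox1. The matches are descriptions of letters in these windows.

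Among the other leading genes, Krt80, a keratin of differentiating epithelium, had 67.0 against 3.66 CPM (18.3-fold) and was detected in 19.0% of Pi16 Stmn4 cells. Krtdap, a secreted protein of the upper epidermis, had 81.6 against 4.70 CPM (17.4-fold, in 9.51% of cells). Cldn11, a tight junction claudin known from myelin and Sertoli cells, had 49.9 against 3.06 CPM (16.3-fold, in 8.79%). Each of these was thus found in a minority of the set. Sbsn, chosen after its values were seen as the genomic neighbour of Krtdap (31761 bases apart on chromosome 7), was 7.66-fold higher, and 65 of the 92 cells with Krtdap (70.7%) also had Sbsn.

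Il18, a cytokine of the interleukin-1 family, had 92.3 against 5.22 CPM (17.7-fold, 13.7 to 23.2) and was detected in 24.9% against 1.64% of cells. Wnt10b, a Wnt ligand, had 38.2 against 2.46 CPM (15.5-fold), and Dact2, an intracellular modulator of Wnt and TGF-beta signalling, 34.0 against 2.01 CPM (16.9-fold). Both were low in level and found in 13.1% and 10.4% of Pi16 Stmn4 cells. Rorb, a nuclear receptor, had 44.9 against 2.98 CPM and Gap43, a protein of growing axons, 32.0 against 2.24 CPM (14.3-fold). Ltc4s, the synthase of leukotriene C4 (24.0-fold), Col6a5, a chain of type VI collagen (21.9-fold), and Daglb (347 against 18.5 CPM, 18.8-fold) complete the leading genes and belonged mainly to a subset of the cells described further on. The size of some leading ratios depended on the comparison cells. Against other cells with FAP/MP markers the ratio was 23.6 for Cmah, 19.5 for Plet1, 15.1 for Duox1, 11.2 for Krtdap, 8.56 for Rorb and 7.75 for Gap43, and against other cells of matched depth it was 54.6 for Duox1, 36.2 for Rorb, 32.9 for Krtdap, 25.6 for Wnt10b and 13.0 for Ltc4s. Each stayed past 2-fold.

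At the other end, the 12 genes with the lowest ratios were each detected in at most 4.09% of the other d0 cells, the share of Saa1. Hba-a2, Hba-a1 and Hbb-bt, the globins, had 4, 5 and 4 UMIs in Pi16 Stmn4 cells and 1128, 1361 and 354 UMIs in the others, where 11, 30 and 10 cells held them. Near-identical globin copies share reads, so their separate values are uncertain. Cd74 and H2-Aa of antigen presentation had ratios of 0.0253 and 0.0311 and were found in 24 and 8 of the other cells. Mmp13, a collagenase of bone and cartilage (0.0125), Gatm (0.0244), Cck (0.0294), Pip5k1b (0.0323), Grp (0.0325), Saa1 (0.0344) and Col9a2 (0.0350) made up the rest. Against cells with FAP/MP markers the ratios of Grp and Hbb-bt were above 1, from 6 and 4 UMIs in the set, and those of Hba-a2 and Hba-a1 were 0.892 and 0.520. Of the most abundant transcripts, Malat1 had a ratio of 0.693, Gsn, an actin-severing protein, 1.37 and Mt1, a metallothionein, 0.953.

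The adventitial list was higher almost throughout. Of 22 genes, 20 had at least 100 UMIs and 16 of these were at least 2-fold higher, none at least 2-fold lower, with a median ratio of 5.54 beside 0.989 for all genes. The list includes genes that are known to accompany Pi16 and the set was chosen by Pi16, so this describes the set and gives no independent support. Cd55 had 433 against 52.5 CPM (8.25-fold, 7.55 to 9.01) and was detected in 64.5% against 14.1% of cells. Sema3c, a secreted guidance protein, had 422 against 60.2 CPM (6.44 to 7.63-fold), and Dpp4 96.5 against 14.3 CPM (6.74-fold, 5.65 to 8.05).

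Wnt2, a Wnt ligand, was 11.3-fold higher at 37.2 against 3.28 CPM. Efhd1, a mitochondrial calcium-binding protein, was 7.68-fold, Uchl1, a deubiquitinase best known in neurons, 7.93-fold, Emilin2, an elastic fibre glycoprotein, 6.90-fold, Limch1 5.93-fold, and Cd248, a surface glycoprotein of stromal cells, 5.82-fold higher. Opcml (5.27), Creb5, a transcription factor of the CREB family (4.12), Ly6c1 (3.86), Ackr3, a scavenger receptor for Cxcl12 (3.75), Gfpt2 (2.94) and Igfbp6 (2.17) followed. Igfbp6 was the most abundant gene of the list at 5666 CPM. The ratios of 4 genes did not reach 2, namely Igfbp5 (1.78), Tppp3 (1.33), Procr (1.16) and Bmp7 (0.845). Against the other cells with FAP/MP markers Igfbp5 (2.60) and Procr (2.65) were past 2-fold. Limch1 was then 11.1-fold, Wnt2 8.67-fold, Cd248 3.68-fold and Ly6c1 2.38-fold higher. Against other cells of matched depth Wnt2 was 21.4-fold higher. Tppp3, a known marker of tendon sheath cells, had 1154 CPM in the set and did not separate it from the rest at 2-fold.

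The parenchymal list went the other way, with 16 of 20 genes at least 2-fold lower, none at least 2-fold higher and a median ratio of 0.352. It holds genes that mark other states of the same d0 cells, such as Hsd11b1, Cmklr1, Mme, Gdf10, Hhip and Inmt. Its lower levels thus describe the set and give no independent support. Cxcl14 had 36.2 against 319 CPM (0.114-fold, 0.0956 to 0.134) and Apod, a lipid-binding lipocalin, 286 against 1664 CPM (0.172-fold). Col15a1, a collagen next to basement membranes, had 103 against 393 CPM (0.262-fold) and Hsd11b1, which activates glucocorticoids, 46.4 against 172 CPM (0.270-fold). Smoc2 (0.341), Bgn, the proteoglycan biglycan (0.363), and Lum, lumican (0.418), were lower but still well expressed, at 333, 607 and 685 CPM. Dlk1, an imprinted Notch-like ligand, had the lowest ratio of the list (0.0778), with 7 UMIs in the set.

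Some of these contrasts depended on which other d0 cells were compared. Against 1901 other cells with at least 2 FAP/MP markers and fewer than 2 tenocyte or mural markers, 262 of 7361 genes (3.56%) were at least 2-fold higher and 338 (4.59%) at least 2-fold lower. The adventitial list had 17 genes higher and none lower (median ratio 4.18), and the parenchymal list 20 of 20 lower (median 0.234). Cd55 was 5.34-fold, Dpp4 6.07-fold and Sema3c 6.59-fold higher, and Cxcl14 had a ratio of 0.0794. Only the comparison cells had been limited, so cells of the set with tenocyte or mural markers remained, and 4 of 4 tenocyte and 4 of 5 mural genes with enough UMIs were then at least 2-fold higher in the set. With both sides so limited, an alternative added after seeing the data, 249 of 7134 genes (3.49%) were higher and 381 (5.34%) lower, the adventitial list still had 17 genes higher and the parenchymal list 20 lower, and of the tenocyte and mural genes none was 2-fold higher (median ratios 0.538 and 0.649 over 3 and 4 genes).

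**Figure D3:**
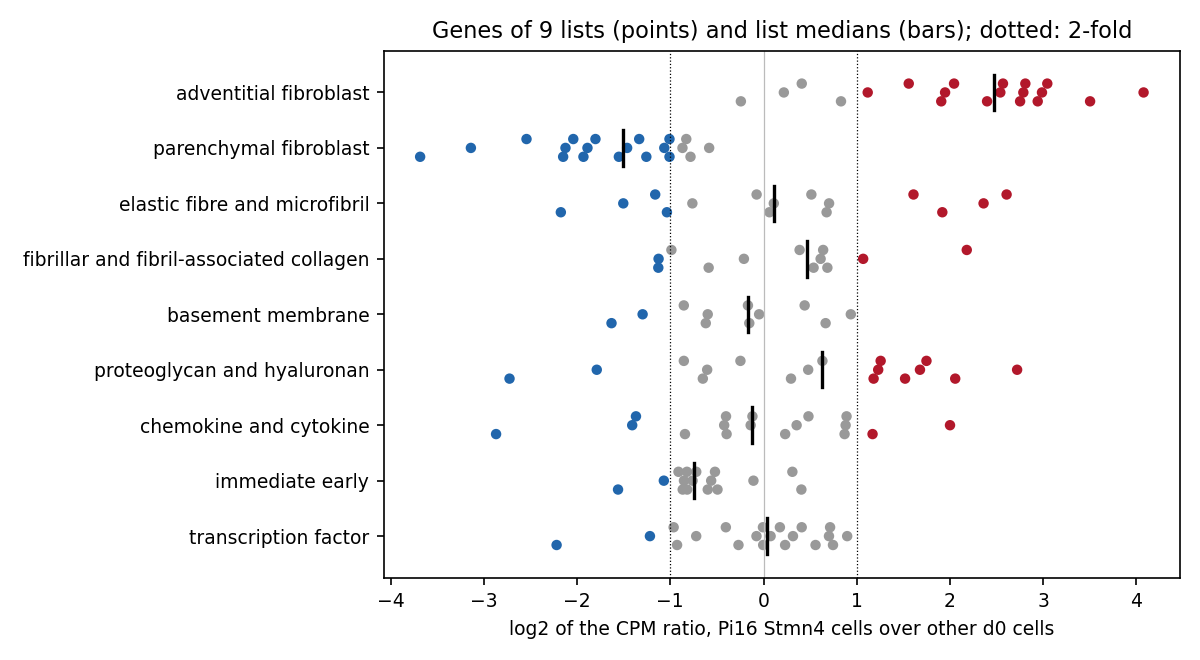
Ratio of CPM (log2) in Pi16 Stmn4 cells over other d0 cells for the genes of 9 lists, with the list median as a bar, genes at least 2-fold higher in red and at least 2-fold lower in blue. The adventitial list has 16 genes to the right of the 2-fold line and the parenchymal list 16 to the left, while the matrix lists have genes on both sides.

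Matrix genes were divided between higher and lower members. Of 15 elastic fibre and microfibril genes, 4 were at least 2-fold higher and 4 at least 2-fold lower (median 1.08). Efemp1, also called fibulin-3, had 372 against 61.0 CPM (6.09-fold), Fbn1, fibrillin-1 and the backbone of microfibrils, 1620 against 316 CPM (5.13-fold), Mfap5, a microfibril glycoprotein, 2962 against 784 CPM (3.78-fold), and Loxl1, a cross-linking enzyme of elastin, 296 against 97.2 CPM (3.05-fold). Mfap4 (0.222), Emilin1 (0.352), Fbln1 (0.447) and Lox, the principal lysyl oxidase (0.488), were lower. Thus Efemp1 and Fbln1, both fibulins, and Loxl1 and Lox, both lysyl oxidases, lay on opposite sides.

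Among 12 fibrillar and fibril-associated collagens, Col14a1, which sits on the surface of fibrils, had 367 against 81.0 CPM (4.53-fold) and Col5a1 429 against 204 CPM (2.10-fold), while Col1a1, the main chain of type I collagen, had 1923 against 4195 CPM (0.458-fold) and Col12a1 53.3 against 117 CPM (0.457-fold). Against the other cells with FAP/MP markers, Col1a1 had a ratio of 0.880 and Col12a1 of 1.25, so neither was 2-fold lower than in those cells. Of 11 basement membrane genes, Col18a1 (0.323) and Nid2 (0.407) were at least 2-fold lower and none was higher.

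In the proteoglycan and hyaluronan list, 8 of 17 genes were at least 2-fold higher and 2 at least 2-fold lower (median 1.55), and 5 of 15 were higher and 1 lower against the other cells with FAP/MP markers. Has1, a hyaluronan synthase, had 1945 against 468 CPM (4.16-fold, 4.02 to 4.30), Has2, another synthase, 69.4 against 24.2 CPM (2.86-fold), Tnfaip6, the enzyme that links heavy chains to hyaluronan, 3101 against 969 CPM (3.20-fold), and Cd44, its receptor, 329 against 138 CPM (2.39-fold). Vcan, a proteoglycan that binds hyaluronan, was 2.35-fold higher. Of these, Has2 (1.72), Cd44 (1.81) and Vcan (1.49) did not reach 2-fold against the other cells with FAP/MP markers. Ptx3 of the rule belongs to the same complex with Tnfaip6. Fn1, fibronectin, had 2830 against 429 CPM (6.59-fold), Postn, periostin, 477 against 142 CPM (3.36-fold) and Tnxb, tenascin-X, 570 against 251 CPM (2.27-fold), and the thrombospondin Thbs1 (0.289) and the tenascin Tnc (0.151) were lower. Tnc had 41 UMIs in the set, and its ratio was 2.21 when only the other cells were limited to those with FAP/MP markers and 0.0665 when both sides were.

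Matrix processing followed with 4 of 16 genes higher and 2 lower. Pcolce2, which enhances procollagen cleavage, was 3.82-fold, Adamts5, an aggrecanase and versicanase, 2.76-fold, Htra3, a serine protease, 2.54-fold and Timp2, a metalloproteinase inhibitor, 2.39-fold higher. Mmp3 (0.338) and Timp1 (0.457) were lower.

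Receptors and ligands of growth factor pathways showed single genes rather than whole lists on the higher side. Of 20 BMP and TGF-beta genes, 3 were at least 2-fold higher and 6 at least 2-fold lower. Tgfbr2, the type II receptor for TGF-beta, had 426 against 96.5 CPM (4.41-fold, 4.10 to 4.75) and was detected in 70.6% against 26.0% of cells, and Fstl1, a secreted follistatin relative, had 2045 against 629 CPM (3.25-fold). Bmp1, a procollagen protease despite its name, was 2.30-fold higher. Among the lower genes were the ligands Bmp5 (0.298) and Tgfb3 (0.303), the antagonist Chrdl1 (0.431) and the BMP target genes Id1 (0.233) and Id2 (0.455).

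In the Wnt list, which did not hold Wnt2 (11.3-fold higher) and Dact2 (16.9-fold higher), Wnt10b was the only one of 13 genes at least 2-fold higher, and 4 were at least 2-fold lower. These were the secreted inhibitors Dkk3 (0.0521), Wif1 (0.102) and Sfrp1 (0.202) and the feedback gene Nkd1 (0.128). Wif1 was abundant in a cluster of cells with Matn3 and Fmod. Its ratio was 2.29 when only the other cells were limited to those with FAP/MP markers and 0.783 when both sides were. Of 15 growth factors and receptors, Vegfd, a lymphatic growth factor, was 5.26-fold and Nov, also known as Ccn3, 2.47-fold higher, and Igfbp7 (0.268), Pdgfrl (0.234), Igfbp3 (0.335) and Vegfc (0.455) were lower.

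Of 17 chemokines and cytokines in a list that did not hold Il18 (17.7-fold higher) and Cxcl14 (0.114), Il33, an alarmin of stromal nuclei, had 204 against 51.0 CPM (4.00-fold) and Ccl2, which attracts monocytes, 1793 against 797 CPM (2.25-fold). Ccl19 (0.137), Cxcl5 (0.387) and Cxcl16 (0.377) were lower. Of 9 complement genes, C3, the central component, had 917 against 210 CPM (4.36-fold) and C2 (0.149) and Cd59a (0.130) were lower. Immediate early genes, which also respond to tissue dissociation, had a median ratio of 0.598 over 16 genes, and Egr2 (0.339) and Nr4a1 (0.477) were at least 2-fold lower. How far dissociation took part in any of these levels was not tested.

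In the retinoid and steroid list 1 of 12 genes was higher and 6 were lower. Aldh1a3, which makes retinoic acid, had 72.9 against 7.46 CPM (9.78-fold, 7.77 to 12.4), whereas the lower genes included the carriers Rbp4 (0.477), Crabp1 (0.0459) and Crabp2 (0.194), the uptake receptor Stra6 (0.125) and the nuclear receptor Nr2f2 (0.311). Families of the rule genes did not follow them as a whole. Of 13 sphingolipid genes, Cers6, a ceramide synthase (2.70-fold), and Ugcg, which makes glucosylceramide (2.10-fold), were higher and Sphk1 (0.482) lower. Of 8 annexins, Anxa1 was 3.19-fold higher and the others were within 2-fold. Stmn1 had a ratio of 0.732 and was the only other stathmin with enough UMIs, while Stmn2 had 10 UMIs in the set. Among carbonic anhydrases, Car4, a membrane-anchored enzyme, was 13.0-fold higher and Car11 lower (0.452).

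No transcription factor of the 20 listed was at least 2-fold higher, and Meox1 (0.215) and Gli1 (0.430), a hedgehog target, were lower. The list was chosen from factors known in fibroblasts and limb cells, and it did not hold Rorb or Creb5, which were higher.

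Against the other cells with FAP/MP markers some of these genes no longer reached 2-fold. On the higher side, beside those named above, Cd34 (1.73), Ly6a (1.79), Igfbp6 (1.73), Tnxb (1.57), Col5a1 (1.50), Htra3 (1.70), Bmp1 (1.70), Nov (1.75), Ccl2 (1.51) and Ugcg (1.62) kept a ratio above 1. On the lower side Lox (0.985), Timp1 (0.867), Sphk1 (0.846), Tgfb3 (0.707), Id2 (0.566) and Nr4a1 (0.531) kept a ratio below 1, as did Nkd1 (0.781) and Cd59a (0.520), which had 12 UMIs each in the set. Higher ratios such as those of Has1 (2.99), Tnfaip6 (2.33), Fn1 (5.77), Fbn1 (3.55), Tgfbr2 (3.60), Il33 (2.95), C3 (2.83) and Aldh1a3 (8.83) stayed past 2-fold.

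The rule genes met in some pairs more than in others. Over all d0 cells, 56.8% of cells with Mrgprg also had Smpd3 and 53.6% of cells with Smpd3 had Mrgprg, while Stmn4 was found in 29.6% of cells with Mrgprg and Mrgprg in 12.4% of cells with Stmn4. Of all d0 cells 12.8% had Stmn4, 5.72% Smpd3 and 5.40% Mrgprg, so Stmn4 and Mrgprg also met more often than over all cells, though less than Mrgprg and Smpd3. Pi16 Stmn4 cells were therefore divided by these genes, a division made after their values were seen. Mrgprg or Smpd3 without Stmn4 was found in 220 cells (22.8%), Stmn4 without the other pair in 387 (40.0%), all sides together in 108 (11.2%) and none of the 3 genes in 252 (26.1%). Depth differed, with a median of 3203 UMIs in the first set and 4691 in the second. The genes of the following paragraphs were picked for their ratio between these sets, and no test is given for them.

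Of 3072 genes with at least 100 UMIs over both sets, 102 (3.32%) were at least 2-fold higher in the cells with Mrgprg or Smpd3 and 80 (2.6%) at least 2-fold lower. Ltc4s had 145 CPM in the cells with Mrgprg or Smpd3 and 0.544 CPM, a single UMI, in those with Stmn4 (ratio 266, interval 46.7 to 10599). Col6a5 had 367 against 1.63 CPM from 266 and 3 UMIs (ratio 224, 76.0 to 1095) and was detected in 41.8% against 0.775% of cells. Car4 had 211 against 2.18 CPM. Some genes were thus confined almost to the cells with Mrgprg or Smpd3 within the set.

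Postn, a matricellular protein of collagen-rich tissue, had 1903 against 40.3 CPM (47.2-fold, 37.4 to 60.5) and was detected in 70.0% against 9.04% of cells. The other d0 cells had 142 CPM, so the cells with Stmn4 were below them, and the higher level of the whole set came from the cells with Mrgprg or Smpd3. The other d0 cells with FAP/MP markers had 47.8 CPM, close to the cells with Stmn4. Against them the ratio of the whole set was 9.97. Daglb had 1081 against 82.7 CPM (13.1-fold), Col6a6, another chain of type VI collagen, 211 against 16.3 CPM (12.9-fold) and Emb, a chaperone of lactate transporters, 227 against 9.80 CPM (23.2-fold). Emb had 90.2 CPM in the other d0 cells, so the cells with Stmn4 were below them. C3 had 2284 against 439 CPM (5.20-fold) and Fn1 6408 against 1664 CPM (3.85-fold), with both also higher in the cells with Stmn4 than in the other d0 cells (210 and 429 CPM).

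Lox, the enzyme that cross-links collagen, had 132 against 22.3 CPM (5.93-fold), Plau, the urokinase protease, 263 against 64.2 CPM (4.10-fold) and Sox4, a transcription factor, 196 against 51.7 CPM (3.78-fold). Lox had 124 CPM in the other d0 cells, close to the level with Mrgprg or Smpd3. Of the rule genes not used for this division, Ptx3 was 7.81-fold, Aif1l 2.93-fold and Car8 2.10-fold higher with Mrgprg or Smpd3. They also chose cells on both sides, so these values are a description only.

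The cells with Stmn4 had their own higher genes, with smaller ratios. Fgf1, a growth factor without a secretion signal, had 61.0 CPM against 8.27 CPM in the cells with Mrgprg or Smpd3, and Pthlh, parathyroid hormone-related peptide, 50.6 against 11.0 CPM. Olfml2a had 101 against 20.7 CPM and Pgf, a placental growth factor of the Vegf family, 280 against 86.8 CPM. Cryab, a small heat shock protein, had 1622 against 462 CPM, Thy1, a surface glycoprotein of fibroblasts, 794 against 281 CPM and Tppp3, a tubulin-binding protein, 1536 against 566 CPM. Fdps and Msmo1, enzymes of sterol synthesis, had 273 against 75.8 CPM and 87.7 against 27.6 CPM. Krtdap was on this side as well (107 against 35.8 CPM). Tppp3 stood at 869 CPM in the other d0 cells, between both sets, beside a ratio of 1.33 for the whole set.

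Many other genes differed by less than 2-fold between these sets. The rule genes Pi16 and Anxa3, which chose cells on both sides, are a description only. Pi16 had 4043 CPM with Mrgprg or Smpd3 and 4070 CPM with Stmn4 (ratio 0.993, 0.951 to 1.04). Anxa3 had 1134 and 1108 CPM, Sema3c 460 and 450 CPM and Dpp4 108 and 103 CPM, each within its counting error of equal. Cd55 (372 and 508 CPM, ratio 0.733, 0.637 to 0.840), Ackr3 (0.651) and Igfbp6 (0.623) were lower with Mrgprg or Smpd3 by more than counting error. Of 17 adventitial genes with enough UMIs, 2 were at least 2-fold higher in the cells with Mrgprg or Smpd3 and 1 lower, Tppp3, with a median ratio of 0.967 beside 0.949 for all genes. Of 10 parenchymal genes 3 were higher, Hsd11b1 (2.73), Lpl (2.18) and Podn (2.01), and 1 lower (median 0.791). Of 3 tenocyte genes 1 was higher and 0 lower, and of 3 mural genes 0 were higher and 2 lower. Over all genes 3.32% were higher and 2.6% lower.

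The same genes were high in cells with only Mrgprg and in cells with only Smpd3. In the 52 cells with Mrgprg and neither of the other genes, Col6a5 had 282, Postn 1558 and Daglb 1041 CPM. In the 68 cells with Smpd3 and neither of the other genes they had 152, 1342 and 456 CPM. When every cell was thinned to 1000 UMIs, Postn was detected in 58.6% of cells with Mrgprg or Smpd3 and 2.07% of those with Stmn4, Col6a5 in 27.3% against 0.517%, and Daglb in 57.7% against 9.82%. The order was kept for the Stmn4 side, with Tppp3 in 33.6% against 69.5%, Thy1 in 20.0% against 47.0% and Cryab in 25.5% against 50.4% of cells.

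**Figure D4:**
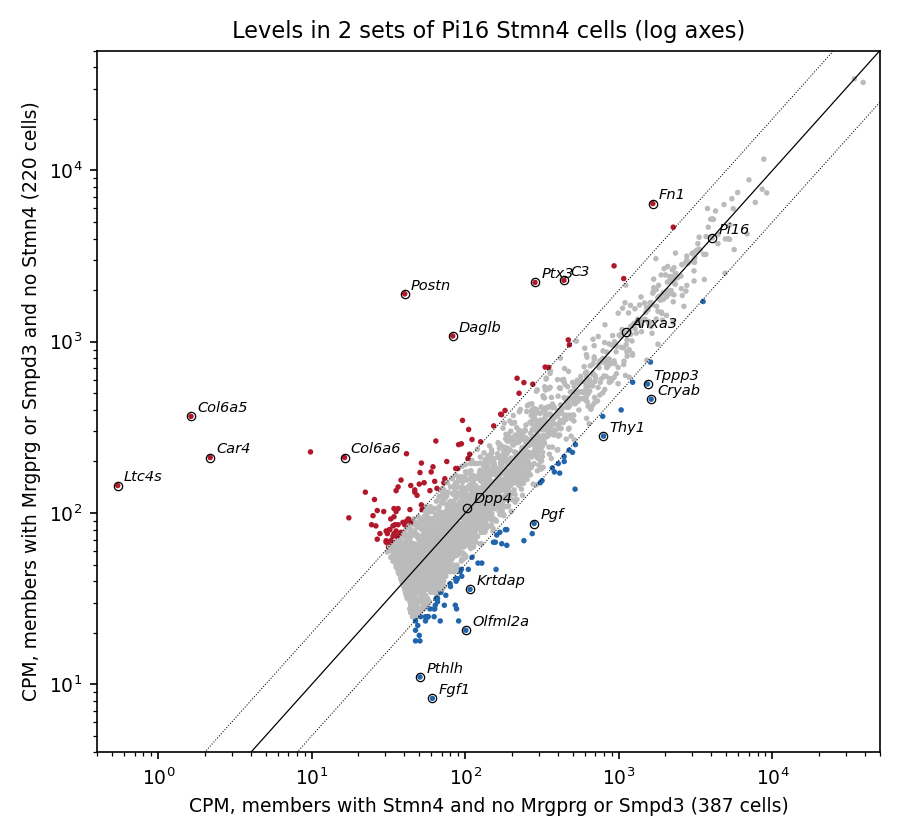
Levels (CPM, log axes) of genes with at least 100 UMIs in 387 Pi16 Stmn4 cells with Stmn4 and no Mrgprg or Smpd3 (horizontal) and 220 with Mrgprg or Smpd3 and no Stmn4 (vertical), with the line of equal level and dotted 2-fold lines, and genes without UMIs in a set not drawn. Pi16, Anxa3 and Dpp4 lie on the line, Ltc4s, Col6a5, Car4, Postn and Daglb far above it, and Fgf1, Pthlh, Cryab, Thy1 and Tppp3 below it.

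Clustering of all d0 cells without the 8 rule genes and without EGFP gave 14 clusters. It used the other genes of the same cells and so describes the set without testing it. A cluster of 771 cells held 589 of the Pi16 Stmn4 cells, 60.9% of the set and 76.4% of the cluster (73.2 to 79.4%), and a cluster of 184 cells held 176 (18.2% of the set and 95.7% of the cluster, 91.6 to 98.1%). A further 115 (11.9%) lay in a cluster of 659 cells led by the interferon-response genes Rtp4, Ifi211 and Ifi205. Each of the remaining 11 clusters held between 0 and 22. Among its 15 nearest neighbours a Pi16 Stmn4 cell had a median of 13 others of the set, and another d0 cell had 0.

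The 2 leading clusters followed the division by Stmn4 in part. The cluster of 771 cells took 84.5% of the cells with Stmn4 alone and 34.5% of those with Mrgprg or Smpd3 alone, and the cluster of 184 cells 0.517% and 56.8%. The smaller was led by Ltc4s, Col6a5, Car4, Daglb, Postn and Col6a6. The larger was led by Cd74, Krt80, Krtdap, Il18, Cldn11, Cmah and Rorb. For Cd74, 7 cells outside the set carried 378 UMIs of this cluster and the cells of the set 2. Of the 182 cells of this cluster outside the set, 113 had exactly 2 rule genes.

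The set was also compared with 3 other fibroblast-like states of d0. Cells with at least 2 of Hsd11b1, Cmklr1 and Mme numbered 477, and 43 of them were Pi16 Stmn4 cells (4.45% of the set and 9.01% of those cells). For Gdf10, Hhip and Inmt it was 16 of 223 cells (1.65% and 7.17%), and for Meox1, Cyp2f2 and Dkk2 4 of 113 (0.414% and 3.54%). These states made up 10.3%, 4.81% and 2.44% of all d0 cells, and 20.9% of all d0 cells were Pi16 Stmn4 cells. Without the shared cells, Cd55 was 65.9, 23.4 and 42.0 CPM in these 3 groups against 433 CPM in the set, and Cxcl14 was 1023, 359 and 382 CPM against 36.2 CPM. Tppp3 separated them least, with 1081, 749 and 764 CPM against 1154 CPM.

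After injury, cells that met the rule were rare at equal depth. The injury libraries were far deeper, with medians of 17963, 15688, 34949 and 15753 UMIs per cell in the libraries labelled d3 and d5 post-fracture and d3 and d5 post-polytrauma, against 3640 at d0, so that every cell was thinned to 1000 UMIs. The rule was then met by 479 of 4632 cells at d0 (10.3%), by 20 of 5589 (0.358%, 0.219 to 0.552%) in the library labelled d3 post-fracture and by 12 of 6201 (0.194%, 0.100 to 0.338%) in that labelled d5 post-fracture. It was met by 12 of 1468 (0.817%, 0.423 to 1.42%) in the library labelled d3 post-polytrauma and by 8 of 11941 (0.0670%, 0.0289 to 0.132%) in that labelled d5 post-polytrauma. The d0 share lay above each of the others by more than its counting interval, with 1 library each. The rule genes had been chosen to mark d0 cells, so this order is a description and no test of injury. Without thinning the shares were 20.9, 15.8, 14.3, 30.7 and 5.44% in the same order, so the library labelled d3 post-polytrauma, the deepest, was then above d0.

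Barcodes shared with another library touched the library labelled d3 post-polytrauma most, with 869 of its 1468 cells. Without them the thinned share was 3 of 599 cells (0.501%, 0.103 to 1.46%) there and 10.4% at d0. Shares depend on which other cells were sorted, so a fall of the share and a fall in the number of cells cannot be told apart, and neither can fewer such cells and less RNA of these genes per cell.

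Levels over whole libraries, in the order d0 and then labelled d3 and d5 post-fracture, d3 and d5 post-polytrauma, are given for rule genes and others. Pi16 was 1156, 55.3, 27.8, 119 and 11.2 CPM, and Stmn4 88.3, 2.65, 1.84, 1.29 and 2.22 CPM. Mrgprg was 53.7 CPM at d0, 0.150 CPM in the library labelled d3 post-fracture and at 0 UMIs in the other 3. Aif1l was 43.2, 3.17, 4.13, 2.80 and 1.55 CPM, and Car8 30.1, 0.720, 1.70, 4.43 and 0.312 CPM. Outside the rule, Dpp4 was 33.3, 0.710, 0.920, 12.1 and 0.405 CPM, and Efhd1 82.2, 1.02, 0.716, 5.01 and 0.480 CPM. These 7 genes were thus lower in each injury library than at d0, and the rule genes among them had been chosen to mark d0 cells. Cd34 was 689, 47.3, 54.7, 99.8 and 42.6 CPM and Pdgfra 158, 46.7, 66.8, 131 and 75.8 CPM, so that the library labelled d3 post-polytrauma had the highest level of both among the injury libraries. Both genes were above the library labelled d3 post-fracture in that labelled d3 post-polytrauma and in that labelled d5 post-fracture. The delay that the paper reports at d3 rests on a score over a list of mesenchymal markers, which was not computed here. Library levels of Cd34 and Pdgfra alone thus do not decide between these labels. No value was used to assign a library to a condition.

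Ptx3 was the exception among the rule genes, with 260, 279, 341, 644 and 385 CPM. Smpd3 was 28.7, 0.110, 0.436, 27.7 and 1.65 CPM, so the library labelled d3 post-polytrauma stood close to d0 for it and far from the other injury libraries. Anxa3 was 336, 114, 105, 75.2 and 113 CPM. Of the leading genes, Daglb had 94.5, 5.05, 6.14, 6.79 and 5.75 CPM, while Plet1 had 6.37, 5.96, 17.5, 0.289 and 0.831 CPM, with its highest value in the library labelled d5 post-fracture. All 15 leading genes had been chosen at d0. Cells that met the rule without thinning were compared with the remaining cells of their library. Of the leading genes with at least 100 UMIs, 2 of 10 were at least 2-fold higher in the library labelled d3 post-fracture, beside 0.512% of all such genes, and 4 of 10 in that labelled d5 post-fracture, beside 0.385%. In the library labelled d3 post-polytrauma it was 5 of 8, beside 1.36%, and in that labelled d5 post-polytrauma 4 of 10, beside 0.955%. Dpp4, Efhd1 and Cd55 are given whatever their UMIs. In the same order Dpp4 was 3.5, 3.20, 16.3 and 6.26-fold, Efhd1 2.68, 3.34, 18.4 and 7.19-fold and Cd55 2.55, 1.88, 5.57 and 2.97-fold higher. The library labelled d3 post-polytrauma had the highest of these ratios for each, and 869 of its 1468 cells had shared barcodes. Outside it Dpp4 had from 27 to 35 and Efhd1 from 28 to 38 UMIs in the cells that met the rule. These cells were chosen at the full depth of each library, at which the rule follows depth.

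**Figure D5:**
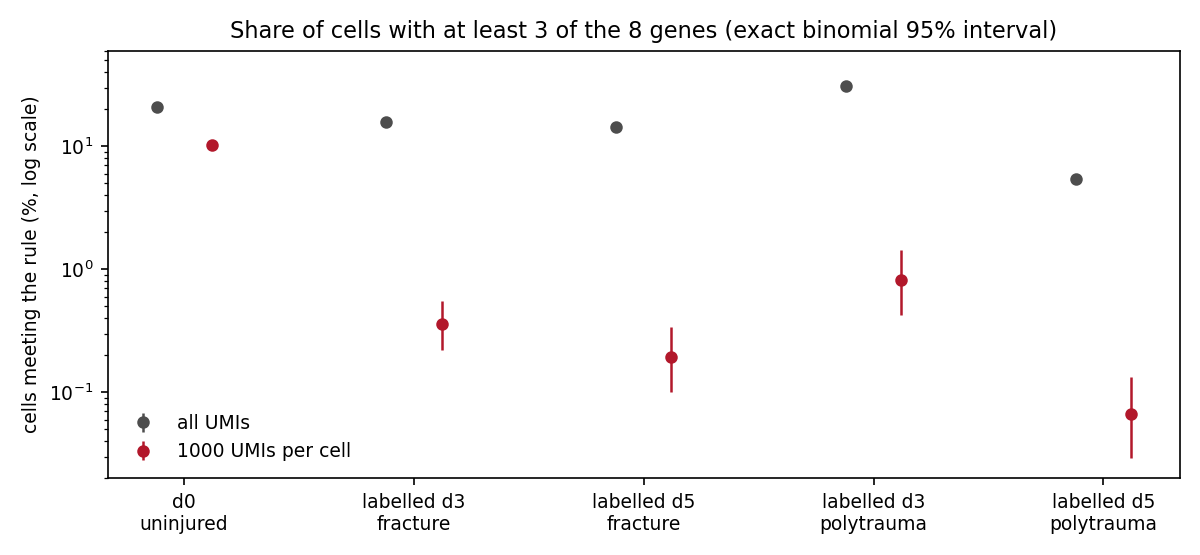
Share of cells with at least 3 of the 8 genes in each library (percent, log axis), with all UMIs (grey) and with every cell thinned to 1000 UMIs (red), and exact binomial 95% intervals that are narrower than the symbols where not visible. At equal depth d0 stands at 10.3% and the 4 injury libraries, named by their labels, between 0.0670% and 0.817%.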

How the data were processed

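GFP+ cells of 5 libraries, each of 2 mice, were analysed from raw UMI counts per gene and barcode as deposited by the authors, who aligned to mm10 with Cell Ranger (3.1.0 in the file headers), without normalization. Seurat 3.1.2 is named in the submitters' processing notes and its output was not used. Positions came from GENCODE M21, which held 31011 of the 31055 gene identifiers of the count matrix, detected or not. UMIs were summed over cells, scaled to CPM and compared as ratios, with a call at 2-fold (2 or more, or 0.5 or less) for genes with at least 100 UMIs. The ratio code was tested on simulated data. Intervals are exact Poisson, binomial (Clopper-Pearson) or conditional binomial 95% intervals. Clusters (scanpy 1.11.5, leidenalg 0.10.2) used genes in at least 5 cells, 2000 variable genes, 20 components, 15 neighbours and a resolution of 0.5. Doublets were not removed. As an alternative the highest Scrublet scores at 0.8% per 1000 cells (230 d0 cells, scored without a minimum of UMIs) were left out. This rate was set after the automatic threshold had called 4. The cells left out were 63 of the 967 Pi16 Stmn4 cells and 155 of the 3665 other d0 cells, beside cells outside the filter.

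The members and the gene lists were chosen with earlier results of these data known. Genes named were the rule genes, the 20 highest and 12 lowest ratios, list genes past 2-fold, the 2 members with most UMIs of lists with none, and the 3 most abundant genes, beside those said to be chosen later. Python 3.11.15, numpy 2.4.6, scipy 1.17.1, pandas 2.3.3, scikit-learn 1.9.0 and matplotlib 3.10.9 were used. Of the endothelial, myogenic, glial, adipocyte, cell-division and stathmin lists, those members were Kdr (10.7 against 3.13 CPM) and Pecam1, Cdh15 and Chrna1, Cdh19, Adipoq and Lep, Cenpf and Ccnb1, and Stmn1 and Stmn2. A few list members are not reported here.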

Additional observations from a re-analysis of the deposited data

How the results depend on the processing

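The share of 20.9% of d0 cells moved with the rule. It was 36.1% with at least 2 of the genes and 13.4% with at least 4, 18.9% without a minimum of UMIs, 10.3% on thinned cells, and 13.8, 17.7, 14.2, 19.7 and 17.7% with Pi16, Stmn4, Anxa3, Aif1l or Ptx3 left out of the rule. The 355 higher genes became 550 at a minimum of 20 UMIs and 157 at 500, where more or fewer genes were compared, and the 913 lower genes 1848 and 337. Lower genes also numbered 338 against other cells with FAP/MP markers, 381 with both sides so limited (an alternative added after seeing the data) and 554 against cells of matched depth. With at least 2 rule genes, 9 parenchymal genes were 2-fold lower in place of 16. Leaving out possible doublets or shared barcodes, median-of-ratios scaling and the mean of per-cell CPM kept the numbers of higher and lower genes within 1.5 times. The adventitial count stayed between 12 and 17 under every alternative run.

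For the libraries (d0, labelled d3 and d5 post-fracture, d3 and d5 post-polytrauma), the share meeting the rule was 15.6, 0.932, 0.866, 2.57 and 0.104% at 2000 UMIs, 20.7, 4.31, 4.29, 6.34 and 2.85% with at least 2 genes, and 20.9, 15.8, 14.3, 30.7 and 5.44% without thinning. The cells with FAP/MP markers had been chosen with fewer than 2 tenocyte or mural markers. Against them 4 of 4 tenocyte and 4 of 5 mural genes with at least 100 UMIs turned from 2-fold lower to 2-fold higher. With both sides so limited none was 2-fold higher, and Fmod had a ratio of 0.574, Acta2 0.786, Tnc 0.0665 and Wif1 0.783. Among named genes past 2-fold whose ratio crossed 1 were Hba-a2 (2.00 at matched depth), of those lists Fmod (2.65) and Acta2 (3.42), and outside them Tnc (2.21), Wif1 (2.29), Grp (1.17), Hbb-bt (2.08) and Col12a1 (1.25) against cells with FAP/MP markers, and Grp (1.21), Hbb-bt (2.57) and Col12a1 (1.03) with both sides so limited. The cause of these differences was not tested. No paired analysis was possible because each condition has 1 library. Genes under 100 UMIs over the d0 cells were not compared, and shares of the injury libraries rest on 8 to 20 cells at 1000 UMIs.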
